A study of Sus scrofa with 6 samples.

Results

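The genes described here encode 10 subunits of the SWI/SNF (BAF) chromatin remodelling complexes, namely SMARCA4, SMARCA2, SMARCB1, SMARCC1, SMARCC2, SMARCD1, ARID1A, ARID1B, BRD7 and BRD9. They were chosen by name, and each was found in the deposited transcript table, giving 10 of 29874 genes. Sus scrofa (pig) 8-cell embryos were sequenced in 3 libraries labelled as LncT knockdown and siRNA injection, and 3 libraries labelled as control in both genotype and treatment. The protocol, which is the same text for every sample, gives injection of siRNA into the cytoplasm. The labels do not say what the control embryos received, how many embryos were pooled, which breed they were, or whether the libraries came from separate collections. P-values here measure only how far these 6 samples spread, and part or all of that spread may be technical. LncT, by its name a long non-coding RNA, could not be matched to a row of the table, so the knockdown itself was not checked.

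SWI/SNF complexes use the energy of ATP hydrolysis to slide or evict nucleosomes, and so make DNA accessible to transcription factors. Each complex is built around SMARCA4 (BRG1) or SMARCA2 (BRM) as its ATPase, on core subunits that include SMARCC1, SMARCC2 and SMARCD1, with SMARCB1 in the canonical BAF and PBAF complexes. ARID1A or ARID1B marks the canonical BAF complex, BRD7 belongs to the PBAF complex, and BRD9 belongs to the non-canonical BAF complex, which lacks SMARCB1. In the mouse, maternal SMARCA4 stored in the egg is needed for activation of the embryonic genome and for development beyond early cleavage.

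The libraries did not divide by label alone, and whether control 3 carries the right label was not tested. Levels are in FPKM, fragments per kilobase of transcript scaled to sequencing depth. Over the 10417 genes that averaged 1 FPKM or more, control 3 had Spearman correlations of 0.900 to 0.941 with the knockdowns and of 0.611 and 0.655 with controls 1 and 2. A wrong label there would change what every group mean and comparison measures. Values of the 10 genes are therefore given library by library, and the comparisons of genes and of ratios are also given without control 3. That choice came from these same data. P-values without control 3, or with less weight on it, take no account of this. Markers of the egg and early embryo were present, with 8 of 8 at 1 FPKM or more in every library but control 3, which had 7. Their summed level was 971 to 1439 FPKM in knockdowns, against 1830, 1875 and 1053 FPKM in controls 1, 2 and 3. Of 7 markers of cumulus and granulosa cells, CYP11A1 and FOXL2 were at 0 in all 6 libraries. The sum of these markers was 1.64 to 2.15 FPKM in knockdowns and 0.493 to 0.841 FPKM in controls. Most of it in the knockdowns was TNFAIP6, a gene of the expanding cumulus matrix. TNFAIP6 was at 1.59, 1.46 and 1.74 FPKM in knockdowns 1, 2 and 3, against 0.0864, 0.352 and 0.537 FPKM in controls 1, 2 and 3. CYP19A1, from the same list, leaned the other way, with overlap. CYP19A1 was at 0.0485, 0.362 and 0.1595 FPKM in knockdowns 1, 2 and 3, against 0.329, 0.437 and 0.289 FPKM in controls 1, 2 and 3.

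The 10 genes stood at widely different levels. BRD7, SMARCC1 and SMARCA2 led in both groups, ARID1B and SMARCA4 came last in both, and the place of BRD9 differed. In knockdowns they averaged 38.6 ± 9.08, 20.1 ± 7.97 and 11.1 ± 1.39 FPKM (SD, n = 3 each), and in controls 54.2 ± 24.7, 20.8 ± 1.94 and 14.8 ± 6.88 FPKM (SD, n = 3 each). The other 7 genes averaged under 4 FPKM in both groups, and SMARCA4 was the lowest of all, at 0.377 ± 0.0614 FPKM in knockdowns and 0.300 ± 0.104 FPKM in controls (SD, n = 3 each). Neighbours in the order whose ranges overlapped did not differ beyond their spread. In knockdowns this held for each step of the run BRD9, SMARCB1, SMARCC2, SMARCD1 and ARID1A. In controls it held for SMARCC1 with SMARCA2, for each step of the run SMARCB1, SMARCD1, SMARCC2 and ARID1A, and for BRD9 with ARID1B. BRD9 thus stood at place 4 in knockdowns, with every value above every ARID1A value, and at place 8 in controls, with every value below every ARID1A value. Summed over the 10 genes, the level was 58.8, 89.6 and 85.8 FPKM in knockdowns 1, 2 and 3, against 126, 113 and 64.8 FPKM in controls 1, 2 and 3. BRD7 alone made up 42.3% to 54.2% of that sum in knockdowns and 43.0% to 61.0% in controls.

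**Figure D1:**
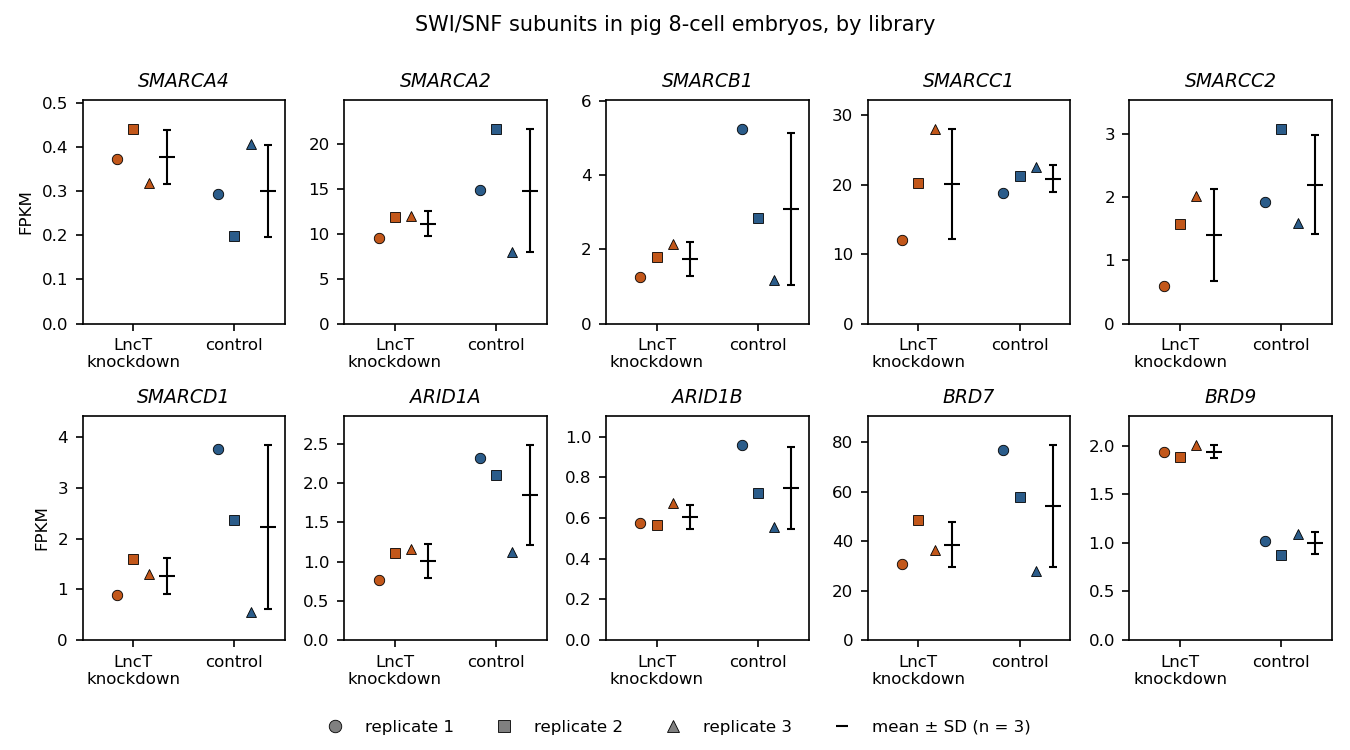
FPKM of each of the 10 subunits in each library, with a linear axis from 0 in every panel, orange for LncT knockdown, blue for control, and the mean with its SD beside each group. BRD9 is the gene whose 3 knockdown points, near 1.9 to 2.0 FPKM, all lie above the control points, and in most other panels control 3 (blue triangle) lies well below controls 1 and 2.

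Lowering LncT was tested for an effect on these genes with limma, fitted to all 10417 genes. A filter on the mean over the 6 libraries let through 8 of the 10 subunits, with SMARCA4 and ARID1B left under it. Of the 8, 0 passed a Benjamini-Hochberg adjusted p of 0.05, and over all genes tested 0% passed. At an unadjusted p under 0.05 there were 0 of the 8, where 4.19% of all genes tested (436) stood. The log2 change, the difference of knockdown from control in log2(FPKM + 1), was below 0 for 7 of the 8 and above 0 for BRD9, with a median of -0.38, against 49.6% of genes below 0 and a median of 0.00 over all genes tested. In embryos sequenced whole, fewer cells of a kind and less RNA per cell cannot be told apart.

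The ATPase genes stood at very different levels. SMARCA2 (chromosome 1, 219624773 to 219815438, Sscrofa11.1) was at 9.49, 11.8 and 12.0 FPKM in knockdowns 1, 2 and 3, against 14.8, 21.7 and 7.91 FPKM in controls 1, 2 and 3. Controls 1 and 2 lay above every knockdown and control 3 lay below every knockdown, so the groups overlapped. The log2 change of SMARCA2 was -0.29 ± 0.41 (SE, limma adjusted p = 0.833). SMARCA4 (chromosome 2, 69717175 to 69810301) was at 0.372, 0.441 and 0.319 FPKM in knockdowns, against 0.294, 0.199 and 0.407 FPKM in controls, again with overlap. Its reads covered the transcripts to a mean depth of 1.40 to 4.15 per base in the 6 libraries. Both ATPase genes overlap a long non-coding RNA gene, and the sources used here do not say whether counting used strand. LOC110259342, over one end of SMARCA4, was at 0.0851, 0.107 and 0.148 FPKM in knockdowns 1, 2 and 3, against 0.0372, 0.00849 and 0.16 FPKM in controls 1, 2 and 3, highest among the controls in control 3, as was SMARCA4. LOC110255636, over one end of SMARCA2, was at 0.823 to 1.39 FPKM in knockdowns and 1.09 to 1.39 FPKM in controls. Their part in the SMARCA4 and SMARCA2 values was not tested. Fitted with no filter, the log2 change of SMARCA4 was 0.09 ± 0.11 (SE, limma adjusted p = 0.837).

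Within each library, SMARCA2 exceeded SMARCA4 by 25.5 to 37.5 times in knockdowns and by 19.4 to 109 times in controls. The log2 ratio of SMARCA4 to SMARCA2, each with 1 FPKM added, was -2.94, -3.15 and -3.30 in knockdowns 1, 2 and 3, against -3.61, -4.24 and -2.66 in controls 1, 2 and 3. Control 3 lay above the knockdowns in this ratio and controls 1 and 2 lay below them. The group difference was 0.38 (two-sided exact permutation p = 0.5, adjusted p = 0.5 over the 4 pairs of related subunits compared). With 3 libraries against 3 the smallest p this test can give is 0.1.

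SMARCA2 reads were assigned to different transcript rows in different libraries. Of its 12 rows, XM_021064291.1 held 9.49 and 11.8 FPKM in knockdowns 1 and 2 and was listed at 0 in knockdown 3 and in controls 1, 2 and 3. Row XM_021064299.1 was listed at 0 in knockdowns 1 and 2 and held 11.9 FPKM in knockdown 3, against 14.8, 21.7 and 7.88 FPKM in controls 1, 2 and 3. In each library 1 of these rows thus held nearly all of the gene's FPKM, and it was not the same row in all 3 knockdowns. Tested among 12013 transcript rows, of which 0.117% passed, the first had a log2 change of 2.36 ± 0.99 and the second of -2.65 ± 1.07 (SE), and neither passed (limma adjusted p = 0.785 for each). An exact 0 in such a table may be a failed estimate.

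**Figure D2:**
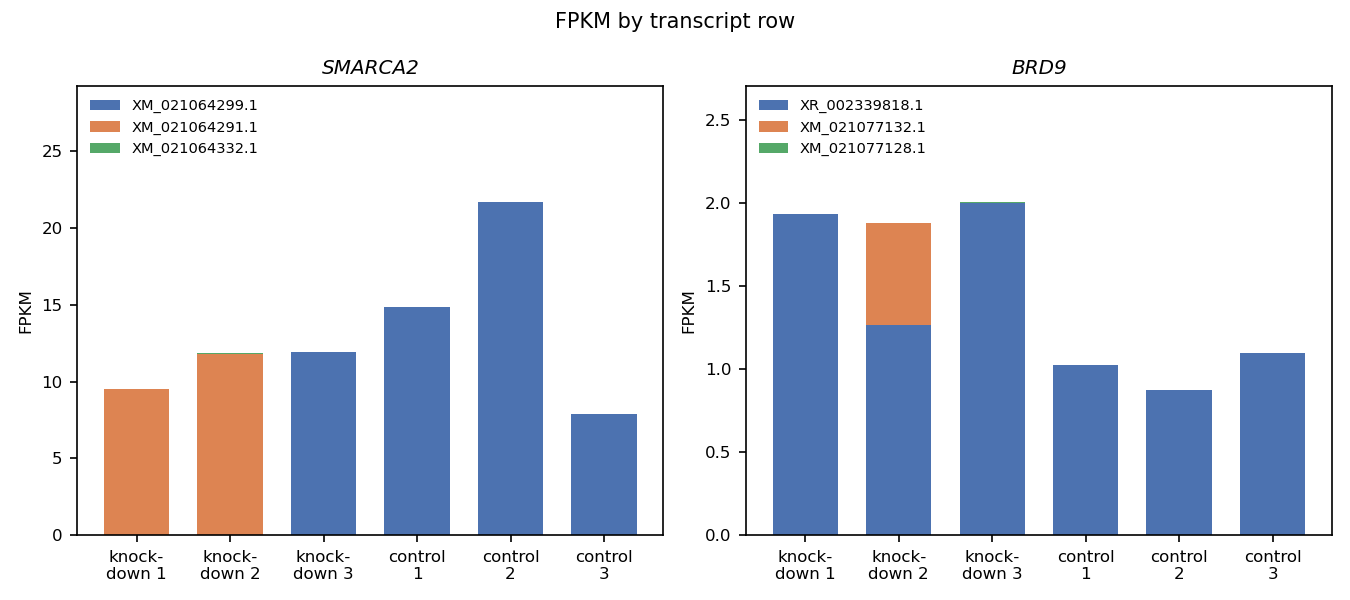
FPKM of each transcript row of SMARCA2 (left) and BRD9 (right) in the 6 libraries, stacked to the gene's sum, with knockdowns to the left of controls. For SMARCA2 the whole bar changes row between knockdowns 1 and 2 and the other 4 libraries, while for BRD9 a second row, at 0.614 FPKM, appears in knockdown 2.

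The core subunits SMARCB1 and SMARCD1 shared a pattern with SMARCA2. SMARCB1 (chromosome 14, 49874981 to 49906043), the subunit lost in rhabdoid tumours, was at 1.24, 1.80 and 2.15 FPKM in knockdowns 1, 2 and 3, against 5.25, 2.86 and 1.16 FPKM in controls 1, 2 and 3. SMARCD1 (chromosome 5, 15992348 to 16005778), which links the complex to transcription factors, was at 0.883, 1.60 and 1.30 FPKM in knockdowns, against 3.77, 2.36 and 0.551 FPKM in controls. In both genes controls 1 and 2 lay above every knockdown and control 3 below every knockdown. The log2 changes were -0.47 ± 0.43 for SMARCB1 and -0.38 ± 0.44 for SMARCD1 (SE, limma adjusted p = 0.788 and 0.810). Of the 5 SMARCB1 rows, 1 was above 0, XR_002338928.1, whose prefix RefSeq gives to predicted non-coding transcripts. The span of SMARCB1 overlaps that of DERL3, at 0.309 to 0.471 FPKM in knockdowns and 0.131 to 1.17 FPKM in controls.

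SMARCC1 and SMARCC2 encode paired scaffold proteins on which the rest of the core assembles. SMARCC1 (chromosome 13, 30409979 to 30576270) was at 12.0, 20.2 and 28.0 FPKM in knockdowns 1, 2 and 3, against 18.7, 21.2 and 22.5 FPKM in controls. The control values lay inside the knockdown range, and the knockdowns differed among themselves more than the groups did. Its log2 change was -0.12 (95% interval -1.0 to 0.76, limma adjusted p = 0.924). A pair of pseudogenes, one of them an NDUFA4 copy, lies inside its span. SMARCC2 (chromosome 5, 21563426 to 21586790) was at 0.596, 1.58 and 2.02 FPKM in knockdowns, against 1.92, 3.08 and 1.58 FPKM in controls, with overlap and a log2 change of -0.44 ± 0.35 (SE, limma adjusted p = 0.775). The log2 ratio of SMARCC1 to SMARCC2 was 3.03, 3.04 and 3.26 in knockdowns, against 2.76, 2.44 and 3.19 in controls, a difference of 0.32 (two-sided exact permutation p = 0.3, adjusted p = 0.4).

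ARID1A and ARID1B are the DNA-binding subunits that define canonical BAF, and a complex holds 1 of them at a time. ARID1A (chromosome 6, 84049729 to 84124302) was at 0.765, 1.11 and 1.16 FPKM in knockdowns 1, 2 and 3, against 2.32, 2.10 and 1.13 FPKM in controls 1, 2 and 3. Controls 1 and 2 lay above every knockdown, and control 3 lay within the knockdown range. Its log2 change was -0.48 ± 0.29 (SE, limma adjusted p = 0.775). ARID1B (chromosome 1, 9791627 to 10227381), which fell below the filter, was at 0.575, 0.565 and 0.672 FPKM in knockdowns, against 0.957, 0.724 and 0.556 FPKM in controls. For ARID1B, controls 1 and 2 lay above every knockdown and control 3 just below every knockdown. Fitted with no filter, its log2 change was -0.12 ± 0.20 (SE, limma adjusted p = 0.871).

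The ratio of ARID1A to ARID1B was the pair ratio whose groups did not overlap. On the log2 scale it was 0.16, 0.43 and 0.37 in knockdowns 1, 2 and 3, against 0.76, 0.85 and 0.45 in controls 1, 2 and 3. Control 3 was again nearest to the knockdowns, and exceeded the highest of them by less than the knockdowns differed among themselves. The means were 0.32 ± 0.14 in knockdowns and 0.69 ± 0.21 in controls (SD, n = 3 each), a difference of -0.36. The two-sided exact permutation p was 0.1, the smallest the test can give, and the adjusted p over the 4 pairs was 0.4. ARID1B was at most 0.957 FPKM, so the 1 FPKM added before the ratio was taken exceeded its level in every library. How often ratios of other gene pairs lie without overlap was not computed.

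**Figure D3:**
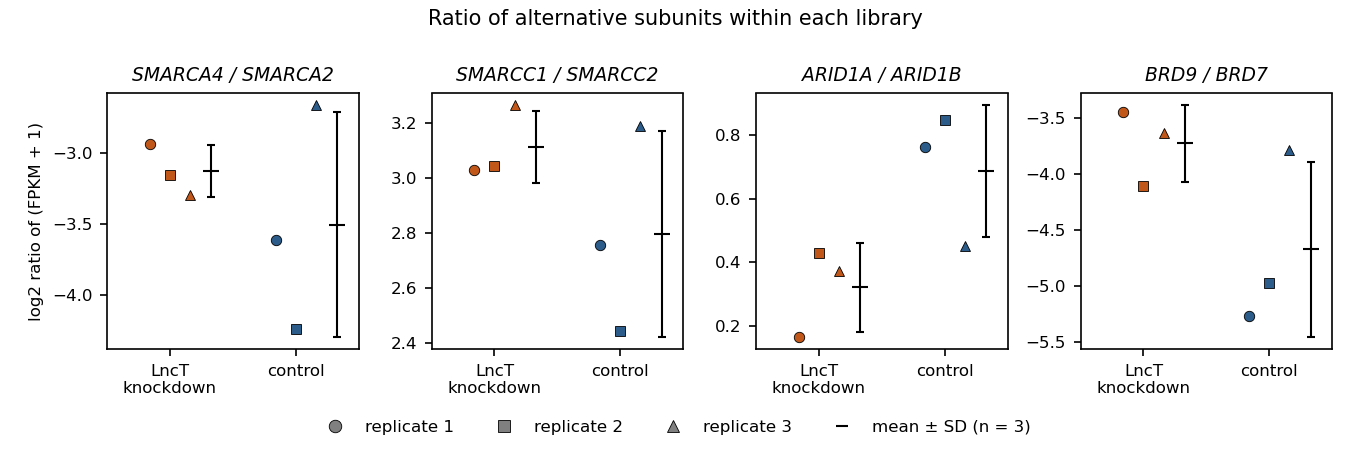
Log2 ratio of (FPKM + 1) between related subunits in each library, for SMARCA4 over SMARCA2, SMARCC1 over SMARCC2, ARID1A over ARID1B and BRD9 over BRD7, with the mean and SD of each group. The groups are apart for ARID1A over ARID1B, at 0.16 to 0.43 in knockdowns and 0.45 to 0.85 in controls, and control 3 (blue triangle) is the control nearest to the knockdown points or, for SMARCA4 over SMARCA2, lies above them.

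BRD7 and BRD9 are related bromodomain proteins, readers of acetylated lysine, that mark different complexes. BRD7 (chromosome 6, 34478008 to 34519622) was at 30.9, 48.6 and 36.3 FPKM in knockdowns 1, 2 and 3, against 76.9, 57.8 and 27.9 FPKM in controls 1, 2 and 3. It followed SMARCA2, SMARCB1 and SMARCD1 in that controls 1 and 2 were above and control 3 below every knockdown. It was the most deeply covered of the 10 genes, at a mean depth of 180 to 514 per base, and its log2 change was -0.39 ± 0.44 (SE, limma adjusted p = 0.807).

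BRD9 (chromosome 16, 79473750 to 79492638) went the other way and was the one among the 10 genes whose groups did not overlap. It was at 1.93, 1.88 and 2.0 FPKM in knockdowns 1, 2 and 3, against 1.02, 0.877 and 1.10 FPKM in controls 1, 2 and 3. Control 3 was the highest of the controls and still lay below every knockdown. The means were 1.94 ± 0.063 FPKM in knockdowns and 0.999 ± 0.112 FPKM in controls (SD, n = 3 each), 1.94 times as high in knockdowns. Its log2 change was 0.56 ± 0.24 (SE, 95% interval -0.01 to 1.12), which did not pass the threshold (limma, Benjamini-Hochberg adjusted p = 0.775). Knockdowns lay above controls without overlap for 4.38% of all genes tested and below them for 2.86%, and for 1 and 0 of the 8 tested subunits. With a control mean of 0.999 FPKM, BRD9 passed the filter of 1 FPKM only through its higher knockdown values, so its place in this count is no independent support. The cumulus marker TNFAIP6, given above, had the same lack of overlap, and CYP19A1 did not. The part of these markers in the BRD9 values was not tested.

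Of 6 BRD9 transcript rows, XR_002339818.1, also with the prefix of a predicted non-coding transcript, held most of the level. It stood at 1.93, 1.26 and 2.0 FPKM in knockdowns 1, 2 and 3, against 1.02, 0.877 and 1.10 FPKM in controls 1, 2 and 3, and XM_021077132.1 added 0.614 FPKM in knockdown 2 alone. The groups did not overlap on the main row either, with a log2 change of 0.44 ± 0.30 (SE, limma adjusted p = 0.785). The depth behind BRD9 was 6.16 to 17.7 reads per base. Relative to BRD7, BRD9 had a log2 ratio of -3.44, -4.11 and -3.63 in knockdowns, against -5.27, -4.97 and -3.78 in controls. Control 3 fell among the knockdowns, and the difference of 0.95 did not pass (two-sided exact permutation p = 0.2, adjusted p = 0.4).

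Without control 3, with 3 knockdowns against controls 1 and 2, 27.4% of all genes tested (2854) passed the adjusted threshold, 20.2% higher and 7.22% lower in knockdowns, and 0 of the 8 subunits did, with limma adjusted p from 0.0662 for SMARCD1 to 0.900 for SMARCC1. At an unadjusted p under 0.05 there were 6 of the 8, where 43.3% of all genes tested stood. Of the 6, SMARCA2, SMARCB1, SMARCD1, ARID1A and BRD7 were lower in knockdowns, as were 17.1% of all genes tested, and BRD9 was higher, as were 26.1%. The log2 change of SMARCB1 was then -0.86 ± 0.31, of SMARCD1 -0.84 ± 0.29, of BRD7 -0.80 ± 0.28, of ARID1A -0.68 ± 0.25 and of SMARCA2 -0.65 ± 0.27 (SE). That of BRD9 was 0.59 ± 0.24 (SE, limma adjusted p = 0.0985), close to its 0.56 with 6 libraries. The group difference in log2 ratio without control 3 was 0.80 for SMARCA4 over SMARCA2, 0.51 for SMARCC1 over SMARCC2, -0.48 for ARID1A over ARID1B and 1.39 for BRD9 over BRD7. In all 4 ratios the knockdowns then lay apart from controls 1 and 2. The share of ratios of other gene pairs that do so was not computed. For single genes, an unlike measure, the shares were 30.5% (controls above) and 31.3% (controls below) of all genes tested. Each of the 4 ratios had a two-sided exact permutation p of 0.2, the smallest that 3 libraries against 2 can give. Array weights, which lower a library that departs from the others under its own label, set control 3 at 0.113, against 0.789 to 2.31 elsewhere. BRD9 then passed the threshold, 1 of the 8 (limma adjusted p = 0.0416), in a fit in which 32.7% of all genes tested passed, with 23.5% of all genes tested higher in knockdowns.

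**Figure D4:**
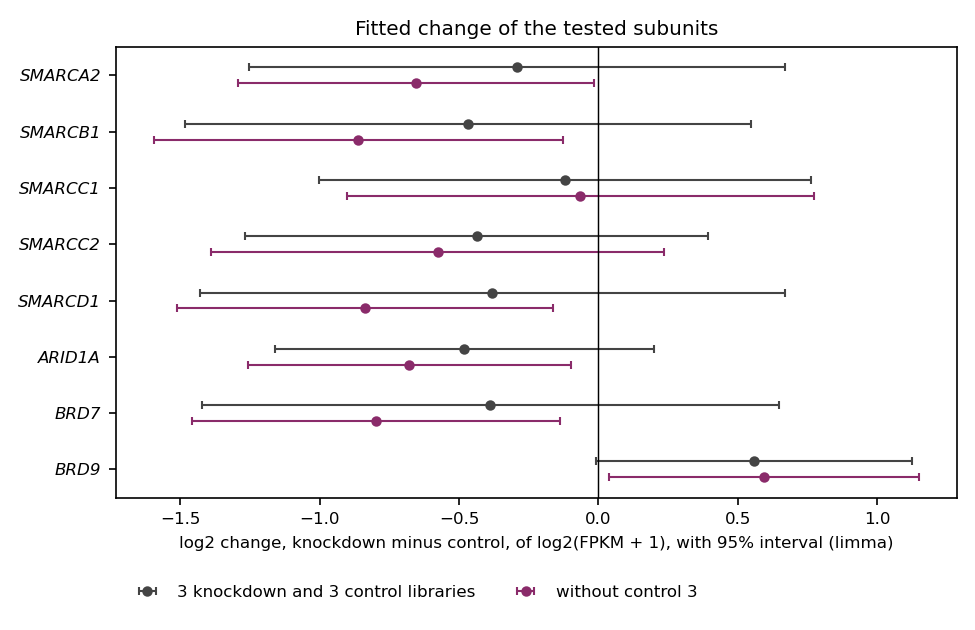
Log2 change, knockdown minus control, with its 95% interval from limma for the 8 tested subunits, with all 6 libraries (grey) and without control 3 (purple). All grey intervals include 0, and without control 3 the intervals of 5 subunits lie below 0 and that of BRD9 lies above it, before any adjustment for the number of genes.

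The place of control 3 can be set against all genes. Controls 1 and 2 both lay above every knockdown for 5 of the 8 subunits, namely SMARCA2, SMARCB1, SMARCD1, ARID1A and BRD7, and for 30.5% of all genes tested. Control 3 lay below every knockdown as well for 4 of the 8, all of those named but ARID1A, and for 15.5% of all genes tested. In number these were 1617 genes, among the 3181 with controls 1 and 2 above every knockdown. Both controls lay below every knockdown for BRD9, and for 31.3% of all genes tested. The summed egg and embryo markers, given above, were also above every knockdown in controls 1 and 2, while control 3 lay within the knockdown range. Single markers differed in control 3. GDF9 and BMP15, at 177 and 327 FPKM there, lay below every knockdown, and DPPA3 and DAZL, at 468 and 60.2 FPKM, lay above every knockdown. Their part in the values of these subunits was not tested.

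The remaining known subunits were examined as a list of 21 genes, of which 9 passed the filter, 12 did not, and 2 of those, the neuronal subunit ACTL6B and the zinc finger gene BCL11B, were listed at 0 in every library. With 6 libraries 0 of the 9 passed in limma and 0 had an unadjusted p under 0.05. Their median log2 change was -0.07, with 5 below 0 and 4 above. Among the 5 with the smallest p, BCL7A, a small accessory subunit, was at 3.39, 3.98 and 3.97 FPKM in knockdowns 1, 2 and 3, against 10.4, 9.94 and 3.14 FPKM in controls 1, 2 and 3. DPF2, the histone reader of canonical BAF, was at 8.77, 14.8 and 10.5 FPKM in knockdowns, against 25.5, 31.5 and 6.55 FPKM in controls. In both genes controls 1 and 2 were well above every knockdown and control 3 was below them.

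ACTL6A, the actin-related subunit of dividing cells, showed the reverse arrangement. It was at 49.1, 88.6 and 104 FPKM in knockdowns 1, 2 and 3, against 26.7, 28.6 and 113 FPKM in controls 1, 2 and 3, so control 3 exceeded every library. SS18, which is fused in synovial sarcoma, was at 19.4, 27.0 and 24.5 FPKM in knockdowns, against 34.5, 23.9 and 30.6 FPKM in controls, with overlap. BCL7B was at 10.2 FPKM in knockdown 2 and 0.127 FPKM in knockdown 3, and was listed at 0 in knockdown 1 and in all 3 controls. It thus passed the filter through knockdown 2 alone. The log2 changes of BCL7A, DPF2, ACTL6A and SS18 were -0.75, -0.62, 0.78 and -0.31 (limma adjusted p from 0.775 to 0.790). Without control 3, where 27.4% of all genes tested passed, 3 of the 9 passed. BCL7A and DPF2 were then lower in knockdowns (log2 change -1.22 and -1.28, limma adjusted p = 0.0105 and 0.0174), and ACTL6A was higher (1.44, adjusted p = 0.0204).

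**Figure D5:**
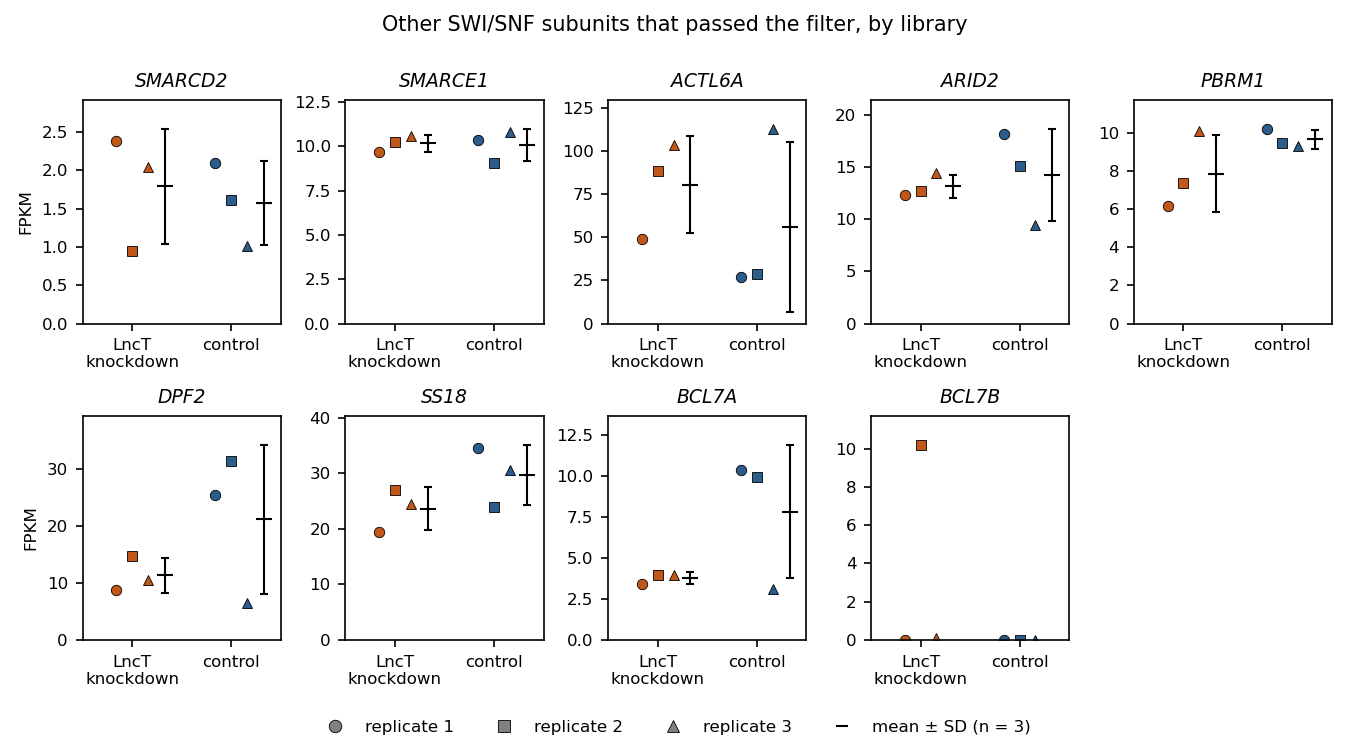
FPKM in each library of the 9 further SWI/SNF subunits that passed the filter, drawn as for the 10 subunits, with no mean where a library of the group was listed at 0. Control 3 (blue triangle) lies with or below the knockdowns for DPF2 and BCL7A and above them for ACTL6A, at 113 FPKM.

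A few more subunits are given here that were chosen after their values were seen. The DNA-targeting PBAF subunit ARID2 was at 12.3 to 14.4 FPKM in knockdowns and 9.50 to 18.2 FPKM in controls. For ARID2, controls 1 and 2 lay above every knockdown and control 3 below every knockdown. With DPF2 and BCL7A, this made 3 of the 9 further subunits tested, against 15.5% of all genes tested. The PBAF bromodomain subunit PBRM1 was at 6.14 to 10.1 FPKM in knockdowns and 9.28 to 10.2 FPKM in controls. The DNA-bending core subunit SMARCE1 was at 10.2 ± 0.471 FPKM in knockdowns and 10.1 ± 0.916 FPKM in controls (SD, n = 3 each), with a log2 change of 0.01, a 95% interval of -0.64 to 0.67 and limma adjusted p = 0.989. BICRA and BICRAL, partners of BRD9 in the non-canonical complex, were low. BICRA was listed at 0 in knockdown 1 and was at 0.0344 and 0.0148 FPKM in knockdowns 2 and 3, against 0.114, 0.109 and 0.0553 FPKM in controls 1, 2 and 3. The knockdowns lay below the controls without overlap, though all values were far under the filter (log2 change -0.10 with no filter, limma adjusted p = 0.813). The actin subunit ACTB, whose reads may be shared with near-identical actin copies, also lay lower in knockdowns without overlap. ACTB was at 0.560, 0.751 and 0.544 FPKM in knockdowns 1, 2 and 3, against 1.07, 1.56 and 0.780 FPKM in controls 1, 2 and 3 (log2 change -0.39 with no filter, limma adjusted p = 0.813). BICRA and ACTB were 2 of the 21, where 2.86% of genes past the filter lay so. The share among genes under the filter was not computed. BICRAL was at 0.449 to 0.735 FPKM in knockdowns and 0.385 to 0.538 FPKM in controls.

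Genes with profiles like those of SMARCA4 and BRD9 were taken by the root mean square difference of log2(FPKM + 1), centred on each gene's mean over the 6 libraries, among 7743 tested genes with a symbol. For BRD9 these were CCDC126, ZNF614 and XRCC5, at differences of 0.04, 0.05 and 0.07, where the profile of BRD9 itself had a root mean square of 0.28. ZNF614 was at 3.80, 3.34 and 3.50 FPKM in knockdowns, against 1.92, 1.88 and 2.20 FPKM in controls. For SMARCA4 they were MFAP1, CLGN and REXO5, at differences of 0.04, 0.05 and 0.05 from a profile whose own root mean square was 0.09. SMARCA4, at 0.199 to 0.441 FPKM, was below the 1 FPKM added, which flattens its profile. MFAP1 varied little, at 54.4, 56.3 and 55.2 FPKM in knockdowns 1, 2 and 3, against 50.1, 48.3 and 56.3 FPKM in controls 1, 2 and 3.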

How the data were processed

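RNA from 3 LncT knockdown and 3 control samples of pig 8-cell embryos was made into libraries with a SMARTER mRNA-Seq kit, per the labels' protocols. Tools named per the submitters' processing notes are StringTie 2.1.7, Bowtie2 2.3.5 and cutadapt, and the build is Sscrofa11.1, with no roles given. The deposited table held FPKM, TPM and coverage (mean read depth) for each of 81774 transcript rows, computed by the authors, per the file headers. It held no counts, and total reads per library are unknown. Coverage stood at 6.29 to 9.41 per FPKM in knockdowns and 6.45 to 7.03 in controls, so depth was similar between groups but for knockdown 2, which was the deepest.

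Columns beginning SL were matched to the samples titled siL, which carry the LncT knockdown genotype. Were SL another siRNA, every comparison here would be of that siRNA. A further 9 columns of values matched no sample and were not used. FPKM was summed over the rows of each gene symbol, giving 29874 genes, of which 29850 matched the RefSeq gene table that supplied coordinates. Where the name cell was numeric (1758 rows), the transcript identifier served as the gene name. The 129 rows with a date-like name took the RefSeq symbol of their transcript where one was found.

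Genes averaging 1 FPKM or more across the 6 libraries were fitted with limma 3.58.1 in R 4.3.3, with the trend option and group as the only term, after conversion to log2(FPKM + 1), and p-values were adjusted by Benjamini-Hochberg over all 10417 genes at 0.05. The pseudocount understates changes of low genes. Ratios were compared by two-sided exact permutation tests over libraries. Alternatives were pseudocounts of 0.1 and 5, no filter and a mean of at least 5 FPKM, 3 other scalings, array weights, a replicate block, single transcript rows and leaving out each library. The genes named were the 10 subunits, their transcript rows that averaged 1 FPKM or more, further subunits past the threshold or among the 5 smallest p, and for SMARCA4 and BRD9 the 3 genes with the nearest profiles. ACTB, ACTL6B, ARID2, BCL11B, BICRA, BICRAL, PBRM1, SMARCE1 and the genes overlapping a subunit fall outside that rule and were named after their values were seen. The same holds for the egg, embryo, cumulus and granulosa markers given by name. Members and lists were chosen with earlier results of these data known. No sequence is shown, since no sequence table was used here.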

Additional observations from a re-analysis of the deposited data

How the results depend on the processing

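With all 6 libraries 0 genes passed limma's adjusted threshold (436 at an unadjusted p under 0.05). The count over all genes was 3405 with array weights, 14 with single transcript rows, and 0 to 2854 when each library was left out, the highest without control 3. Among the 8 tested subunits it was 1 with array weights and 0 in the other settings. Among the further subunits it was 3 with array weights and 0 to 3 when each library was left out. The 14 transcript rows became 0 to 1614 when each library was left out. SMARCC1 turned to 0.073 with array weights and ranged from -0.39 to 0.19 with a library left out, turning without knockdown 1. SMARCA2 ranged from -0.65 to 0.019, turning without control 2. The other tested subunits kept the sign of their log2 change in every setting run, and BRD9 ranged from 0.51 to 0.59 with a library left out. Quantile normalization moved the median of all genes to -0.17 and TPM to -0.10, and that of the 8 subunits to -0.58 and -0.52, with 7 of 8 below 0 in both. Over all genes tested, 61.8% were below 0 with quantile normalization and 56.5% with TPM. The summed level of the 10 subunits differed by -23.1 FPKM, knockdown minus control, and by -41.3 to -10.8 FPKM with a library left out. Deviations of same-numbered libraries 1, 2 and 3 had correlations of 0.085, 0.063 and 0.226. Knockdown 1 correlated best with control 2, at 0.111, and knockdown 2 with control 1, at 0.1. The highest correlation was that of knockdown 3 with control 3. Deviations were taken from group means that include the outlying control 3, so these values cannot decide whether same-numbered samples were paired. With a replicate block 0 genes passed (747 at an unadjusted p under 0.05). The ARID1A to ARID1B difference of -0.36, which balanced pairs cannot alter, had an exact permutation p of 0.25 with the block, the smallest that 3 pairs can give, against 0.1 without it. Leave-one-out fits with 2 libraries in a group assume a like spread in both groups. Shallow coverage limits SMARCA4 and ARID1B, which did not reach the filter.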
